A study of Rattus norvegicus with 12 samples.

Results

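The 5 genes described here, of innate immune sensing and inflammatory signalling, were measured in rat spinal cord at the ninth thoracic segment (T9): Cd14 (ENSRNOG00000017819), Tlr2 (ENSRNOG00000009822), Tlr4 (ENSRNOG00000010522), Ccl2 (ENSRNOG00000007159) and Il1b (ENSRNOG00000004649). They were chosen by Ensembl identifier, and all 5 identifiers were present among the 32883 genes of the count table. The tissue came from Sprague Dawley rats in 3 groups of 4 libraries: cord without injury (uninjured), cord 5 days after a T9 hemisection, which cuts 1 side of the cord (injured), and cord 5 days after the same lesion with epidural electrical stimulation over segments L2 to S1 (stimulated). RNA was counted by CEL-Seq2, which tags transcripts near their 3′ ends. The sources used here do not state the age or sex of the rats, the stimulation settings, or whether rats without stimulation carried electrodes. Nor do the labels tie libraries to animals, so every p-value below measures spread among these libraries, which may be technical.

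Toll-like receptors are membrane proteins with which microglia, macrophages and other cells detect microbial products and molecules released by damaged tissue. CD14 binds such ligands and passes them to TLR4 and to TLR2, which signal through the adaptor MyD88 to the transcription factor NF-κB. CCL2, a chemokine that draws monocytes through the receptor CCR2, and interleukin-1 beta, a cytokine made as a precursor that caspase-1 cleaves, are well-known products of this signalling. In bulk tissue, fewer cells of a type and less RNA per cell cannot be told apart.

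The libraries were shallow, with 204836 to 553986 counts each, and most of the 5 genes were near the limit of detection. Levels are given in CPM, the count scaled to the library total and to a composition factor. A gene with no count in a library could still have been present there at up to 4.70 to 15.8 CPM, the level of 3 counts in the deepest and the shallowest library, for counting error alone. Over the 12 libraries together Ccl2 had 332 counts, Tlr2 had 82, Il1b had 58, Tlr4 had 25 and Cd14 had 20. Among injured libraries, replicate 1 stood nearest to uninjured cord over all genes: its log2 CPM correlated with the uninjured libraries at a mean Pearson r of 0.777, against 0.620 to 0.674 for the other 3. Results that involve injured cord are therefore given without that library as well. Since it was picked for its likeness to uninjured cord, leaving it out favours larger differences from uninjured cord. Such values describe its weight and are no independent check.

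Cd14, Tlr2, Tlr4, Ccl2 and Il1b all had higher mean levels in injured and in stimulated cord than in uninjured cord. Ccl2 and Tlr2 passed the main test in both comparisons, where 16.8% and 18.3% of all genes tested were called higher. Il1b, Cd14 and Tlr4 had too few counts for that test. In a second fit, chosen after the data were seen, Il1b also passed in both, and Cd14 and Tlr4 in neither. There 10.6% and 10.5% of all genes tested were called higher. No gene of the 5 passed between stimulated and injured cord.

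**Figure D1:**
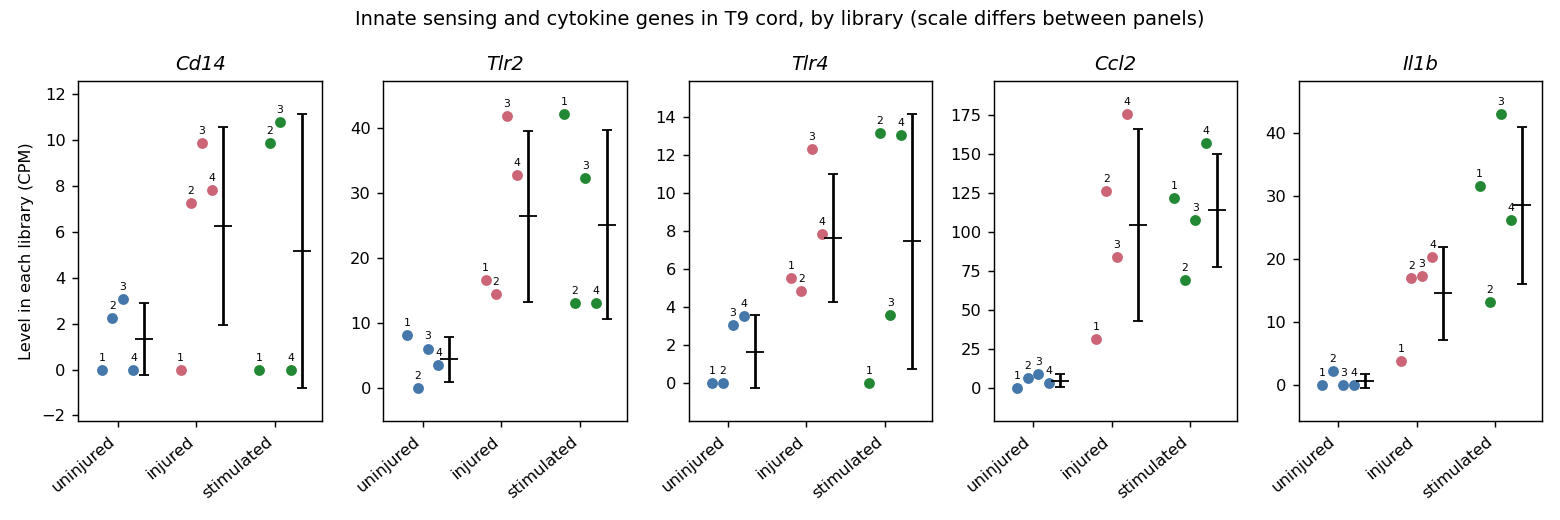
Level of each gene in each library (points, with replicate numbers) in CPM, with the group mean and SD (black bars, n = 4), on a separate linear scale for each gene. All 4 injured and all 4 stimulated libraries lie above all uninjured libraries for Tlr2, Ccl2 and Il1b, and all 4 injured ones for Tlr4. That was so in 11.4% (injured) and 10.7% (stimulated) of genes with 10 or more counts. Cd14 has injured and stimulated libraries at 0, and Tlr4 has a stimulated library at 0.

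Only Tlr2 and Ccl2 were abundant enough for the main test, an edgeR quasi-likelihood fit of 5285 genes. A second fit, chosen after the data were seen, kept the 11291 genes with a total of 10 or more counts over the 12 libraries and held all 5 genes. Uninjured cord gave 1 to 7 summed counts of each. All 5 genes thus met the second filter, and Tlr2 and Ccl2 also the first, through the groups in which they were high. Counts of calls over them are a description only. A gene had to be high somewhere to enter these fits. Values from a fit without a filter, which takes every gene with at least 1 count and which each of the 5 genes enters on its uninjured counts alone, are therefore given beside each call. In the second fit, at edgeR adjusted p under 0.05, 3 of the 5 were called higher in injured than in uninjured cord. Of all genes tested in that fit, 10.6% were. In stimulated against uninjured cord 3 of 5 were called higher, where 10.5% of all genes were. The called genes were Tlr2, Ccl2 and Il1b in both. Without a filter the same 3 were called in both, where 6.41% and 6.28% of 18333 genes were called higher. In the main fit 16.8% and 18.3% of genes were called higher. The median log2 fold change of the 5 genes in the second fit was 2.71 for injured and 2.52 for stimulated against uninjured cord, beside medians over all genes of 0.019 and -0.0041. Both comparisons use the same uninjured libraries and are not independent of each other.

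Cd14, the co-receptor, had the fewest counts. Uninjured replicates 1 to 4 had 0, 1, 1 and 0 counts, injured replicates 0, 3, 4 and 5, and stimulated replicates 0, 3, 3 and 0. Groups overlapped, since injured replicate 1 and stimulated replicates 1 and 4 had no count. Summed over libraries, the level per total was 3.91 times that of uninjured cord in injured cord, with an exact 95% counting interval of 0.871 to 36.0, and 3.91 times in stimulated cord (0.699 to 39.6). Neither the second edgeR fit (adjusted p = 0.238 and 0.336) nor an exact two-sided permutation of CPM over the 70 arrangements of 4 against 4 libraries (p = 0.143 and 0.429) passed. No change in Cd14 was detected with these counts and this spread between libraries. Without injured replicate 1 the ratio in injured cord was 5.37 (1.196 to 49.4) and the edgeR adjusted p was 0.120. The exact permutation p was then 0.0286 before adjustment, the smallest possible, since the only injured library without a Cd14 count was left out. That replicate was among the deepest libraries, with 510260 counts and none of Cd14. Leaving out any other library of the 2 groups gave exact permutation p-values of 0.143 to 0.257 and counting intervals that included 1.

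Tlr2, which pairs with other Toll-like receptors to detect bacterial lipoproteins, was the more abundantly counted of the receptors. Its counts in uninjured replicates 1 to 4 were 2, 0, 2 and 1. Injured replicates had 9, 6, 17 and 21 counts, and stimulated replicates had 8, 4, 9 and 3. In CPM every injured and every stimulated library lay above every uninjured one, which for injured cord was so in 11.4% of the genes with 10 or more counts and for stimulated cord in 10.7%. Its level was 4.44 ± 3.50 CPM in uninjured, 26.5 ± 13.2 CPM in injured and 25.2 ± 14.5 CPM in stimulated cord (SD, n = 4 each).

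Tlr2 rose in injured cord by a log2 fold change of 2.65 (SE 0.69, edgeR adjusted p = 0.00738) and in stimulated cord by 2.53 (SE 0.75, edgeR adjusted p = 0.0139). Without a filter the log2 fold changes were 2.70 and 2.48 (edgeR adjusted p = 0.000583 and 0.00507). The call in stimulated cord depended on uninjured replicate 2, the library without a Tlr2 count. With that library left out the log2 fold change was 1.99 and the edgeR adjusted p was 0.0523. Without injured replicate 1 the log2 fold change in injured cord was 2.83 in the second fit (edgeR adjusted p = 0.00266).

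Tlr4, the receptor for bacterial lipopolysaccharide, was counted at most 5 times in any library. Uninjured replicates 1 to 4 had 0, 0, 1 and 1 counts, injured replicates 3, 2, 5 and 5, and stimulated replicates 0, 4, 1 and 3. Its level was 1.65 ± 1.91 CPM in uninjured, 7.63 ± 3.38 CPM in injured and 7.46 ± 6.70 CPM in stimulated cord (SD, n = 4 each). The 4 injured libraries lay above the uninjured ones, which was so in 11.4% of genes with 10 or more counts. The exact two-sided permutation p was 0.0286, the smallest that 4 against 4 can give. Adjusted over the 11291 genes that p was 0.137, as for Tlr2, Ccl2 and Il1b. Since 0% of genes passed, the adjusted exact test could not set these genes apart. The edgeR adjusted p in the second fit was 0.120 at a log2 fold change of 2.11 (SE 0.95). In stimulated cord the log2 fold change was 2.10 (SE 1.03, edgeR adjusted p = 0.157), and the library without a count overlapped the uninjured range. Without injured replicate 1 the edgeR adjusted p for injured cord was 0.124. Its ratios of summed counts were 4.89 (exact 95% counting interval 1.14 to 44.1) and 5.21 (1.04 to 50.4). They rested on single libraries: the ratio in injured cord was 3.21 (0.747 to 29.0) without uninjured replicate 2, 7.33 (1.13 to 308) without uninjured replicate 3 and 7.66 (1.18 to 323) without uninjured replicate 4. The ratio in stimulated cord was 3.74 (0.536 to 41.3) without stimulated replicate 2, 3.42 (0.683 to 33.1) without uninjured replicate 2 and 8.16 (1.09 to 362) without uninjured replicate 4.

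Ccl2, the monocyte chemokine, was the best counted of the 5 genes. Uninjured replicates 1 to 4 had 0, 3, 3 and 1 counts. Injured replicates had 17, 52, 34 and 112 counts, and stimulated replicates had 23, 21, 30 and 36. Every injured and stimulated library thus lay above the uninjured ones. That was so in 11.4% (injured) and 10.7% (stimulated) of genes with 10 or more counts. The margin for Ccl2 was wide. Its highest uninjured level was 9.16 CPM, its lowest injured level 31.4 CPM and its lowest stimulated level 69.2 CPM. Means were 4.85 ± 3.97 CPM in uninjured, 104 ± 61.3 CPM in injured and 114 ± 36.2 CPM in stimulated cord (SD, n = 4 each).

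Ccl2 rose by a log2 fold change of 4.22 in injured cord (SE 0.62, edgeR adjusted p = 9.08e-05) and of 4.32 in stimulated cord (SE 0.63, edgeR adjusted p = 7.44e-05). Without a filter they were 4.26 and 4.27 (edgeR adjusted p = 4.41e-15 and 1.04e-14). The second fit gave edgeR adjusted p-values of 3.65e-06 and 3.86e-06, and limma-voom with weights gave 0.00104 and 0.000800. At nearly the same fold changes the size of p thus depended on the genes fitted and on the method. The smallest values are no better measure of the evidence from 4 against 4 libraries. Ratios of summed counts were 20.03 (exact 95% counting interval 9.56 to 50.4) and 20.5 (9.61 to 52.1). In the second fit 99.1% of genes had a log2 fold change no larger than that of Ccl2 in injured cord, and 98.9% in stimulated cord. The injured libraries differed among themselves, from 31.4 CPM in replicate 1 to 175 CPM in replicate 4. Without replicate 1 the ratio in injured cord was 25.3 (12.1 to 63.8).

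**Figure D2:**
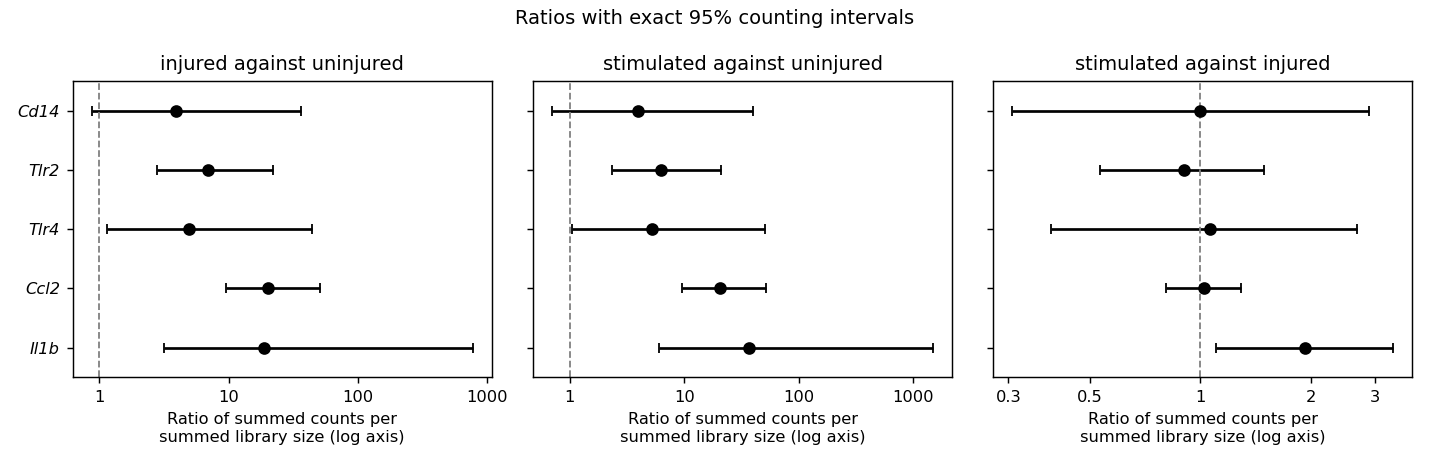
Ratio of summed counts per summed library size for each gene in 3 comparisons (points, log axis with a scale of its own in each panel), with exact 95% counting intervals (bars) and a dashed line at a ratio of 1. Ccl2 has the narrowest intervals, around 20.03 and 20.5 against uninjured cord and 1.02 for stimulated against injured cord, while the interval for Il1b against uninjured cord is wide because uninjured cord had 1 count.

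Il1b, the gene of interleukin-1 beta, was all but absent from uninjured cord. A single count, in replicate 2, was found in the 4 uninjured libraries. Injured replicates 1 to 4 had 2, 7, 7 and 13 counts, and stimulated replicates had 6, 4, 12 and 6. Both groups lay above uninjured cord in CPM without overlap. That was so in 11.4% (injured) and 10.7% (stimulated) of genes with 10 or more counts. The exact two-sided permutation p was 0.0286 for each, the smallest possible, and 0.137 and 0.139 when adjusted over the 11291 genes. Tlr2 and Ccl2 had these same values, and 0% of genes passed. The adjusted exact test thus could not set these genes apart. Means were 0.559 ± 1.12 CPM in uninjured, 14.6 ± 7.42 CPM in injured and 28.5 ± 12.4 CPM in stimulated cord (SD, n = 4 each).

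In the second edgeR fit Il1b rose by a log2 fold change of 3.80 in injured cord (SE 0.91, edgeR adjusted p = 0.00302) and of 4.67 in stimulated cord (SE 0.88, edgeR adjusted p = 0.000195). Without a filter they were 3.79 and 4.63 (edgeR adjusted p = 0.00102 and 9.31e-06). The fitted sizes rest on the single uninjured count and on the prior the fit adds. As ratios of summed counts they were 18.9 (exact 95% counting interval 3.14 to 773) and 36.5 (6.03 to 1491). Without uninjured replicate 2 the level was at least 4.14-fold higher in injured and at least 7.99-fold higher in stimulated cord, with a floor of 3 counts over the uninjured group. The fitted log2 fold changes without that library were 5.40 and 6.27, and the gene remained called in both comparisons. Injured replicate 1 was low for Il1b, at 3.69 CPM against 17.0 to 20.4 CPM in the other 3, and without it the log2 fold change was 4.07 (edgeR adjusted p = 0.000838).

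Promoter sequences from RefSeq (build GRCr8, 250 bases before to 50 after the annotated start) were matched by symbol for 4 of the 5 genes: Cd14, Tlr2, Tlr4 and Il1b. Those of Tlr2 and Il1b are shown, the genes among these 4 that rose together, written 5′ to 3′ along the gene with motif matches in capitals. Tlr2 is at chr2:171504508-171504807 and Il1b at chr3:137036532-137036831, both on the minus strand.
Tlr2: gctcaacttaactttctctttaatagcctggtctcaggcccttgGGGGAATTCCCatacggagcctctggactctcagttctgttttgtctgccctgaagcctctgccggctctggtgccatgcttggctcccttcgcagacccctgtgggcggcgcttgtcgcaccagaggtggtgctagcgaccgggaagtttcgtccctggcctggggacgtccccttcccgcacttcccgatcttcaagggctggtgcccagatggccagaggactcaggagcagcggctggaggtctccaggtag
Il1b: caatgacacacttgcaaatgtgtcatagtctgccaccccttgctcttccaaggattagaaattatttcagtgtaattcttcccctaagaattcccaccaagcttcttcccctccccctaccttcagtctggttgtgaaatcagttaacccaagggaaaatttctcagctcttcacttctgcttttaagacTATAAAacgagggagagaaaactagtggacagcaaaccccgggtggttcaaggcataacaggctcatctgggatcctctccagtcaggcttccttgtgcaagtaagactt

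The capitals in Tlr2 mark overlapping matches, starting 206 and 205 bases before the start, to the κB consensus, the NF-κB binding motif. Of 33465 rat promoters of the same length, 4.18% held a κB match on either strand. The windows of Cd14, Tlr4 and Il1b held none. The capitals in Il1b mark the core promoter element TATAAA, searched on the strand of the gene, which starts 60 bases before the annotated start. It was held by 8.8% of promoters. The AP-1 motif TGANTCA (7.33% of promoters, either strand) was not found in the 4 windows. The core GAGGAA of the myeloid factor PU.1 (27.6%, either strand) occurred in those of Cd14 and Tlr4 and not in those of Tlr2 and Il1b. The Tlr2 window had 61.0% G and C and the Il1b window 45.3%, around a median of 51.7% over all promoters. Matches describe these letters only and say nothing of binding in these cords.

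The effect of stimulation on the injured cord was asked by comparing stimulated with injured cord. Cd14, Tlr2, Tlr4 and Ccl2 had similar mean levels in both groups, with ratios of summed counts of 0.998, 0.904, 1.07 and 1.02, and Il1b had a higher mean in stimulated cord that did not pass the test. None of the 5 genes was called, and none was called among all genes tested in the main or the second fit (0% of 5285 and of 11291). Without a filter 28 of 18333 genes were called, and none of the 5. At unadjusted p under 0.05 the main and second fits gave 9.29% and 7.86% of all genes and again none of the 5. DESeq2 and limma-voom called none of the 5 either.

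The precision of this comparison differed from gene to gene. For Ccl2 the log2 fold change was 0.11 (SE 0.43, edgeR adjusted p = 0.954), with a limma-voom 95% interval of -0.61 to 1.23. For Tlr2 it was -0.11 (SE 0.53, edgeR adjusted p = 0.961), with an interval of -1.26 to 1.01. A doubling of either gene, which is 1 on this scale, was thus within the interval. The 2 least counted genes were less well bounded, with limma-voom intervals in the second fit of -1.64 to 1.70 for Cd14 and -1.50 to 1.17 for Tlr4. Exact 95% counting intervals of their ratios were 0.307 to 2.87 and 0.391 to 2.68. On the log2 scale these reach further at the lower end for Cd14 and at the upper end for Tlr4. Since they hold counting error only, the limma-voom limits are too narrow at those ends. Without injured replicate 1, which had the lowest Ccl2 level of the injured libraries, the Ccl2 estimate in the second fit turned from 0.024 to -0.27 (edgeR adjusted p = 0.948). The same omission gave -0.36 for Tlr2, -0.53 for Cd14 and -0.12 for Tlr4 in that fit, with edgeR adjusted p-values of 0.948 to 0.990.

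**Figure D3:**
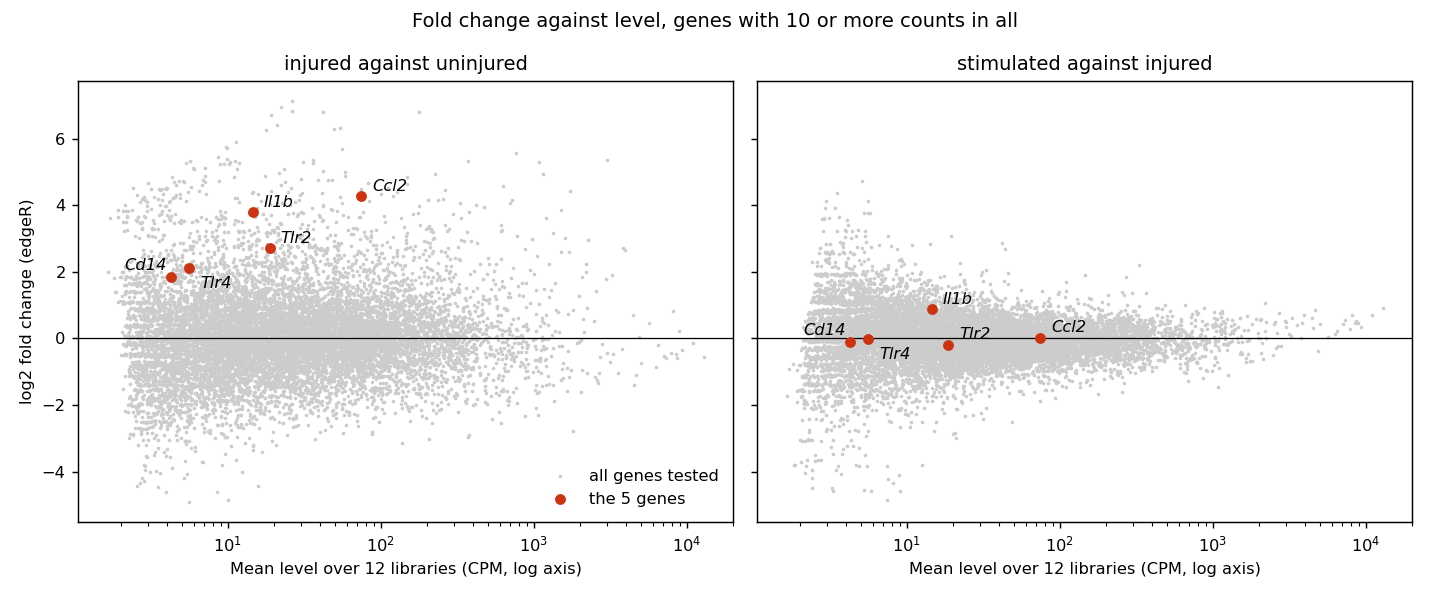
Log2 fold change against mean level for the 11291 genes with a total of 10 or more counts (grey) and the 5 genes (red), for injured against uninjured cord (left) and stimulated against injured cord (right), with levels on a log axis. On the left the 5 genes lie between 1.84 and 4.28, and on the right between -0.19 and 0.87.

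Il1b stood at 31.7, 13.2, 43.1 and 26.1 CPM in stimulated replicates 1 to 4, and at 3.69 to 20.4 CPM in the injured libraries. In 3 of 4 stimulated libraries the level was above the highest injured one, and replicate 2 lay within the injured range. The ratio of summed counts was 1.93, with an exact 95% counting interval of 1.11 to 3.36 that leaves out the spread between libraries. With that spread the difference did not pass: the log2 fold change was 0.87 (SE 0.52, edgeR p = 0.104, adjusted p = 0.689), its limma-voom 95% interval was -0.06 to 2.05, and the exact two-sided permutation p was 0.114. Among all genes of the second fit, 91.1% had a log2 fold change no larger. Without injured replicate 1 the ratio was 1.51 (0.857 to 2.66) and the exact permutation p was 0.229. Without stimulated replicate 2 the ratio was 2.37 (1.32 to 4.22) and the exact permutation p was 0.0286 before adjustment. That p is the smallest possible and follows from leaving out the only stimulated library within the injured range. Leaving out any other library of the 2 groups gave exact permutation p-values of 0.114 to 0.229. Without injured replicate 4 the ratio was 2.38, with an exact permutation p of 0.114. Without stimulated replicate 3, the highest for Il1b, the ratio was 1.53 (0.774 to 2.91) and the exact permutation p was 0.229. The counting interval thus included 1 without that library, as it did without injured replicate 1.

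Counts of Il1b relative to Ccl2 in the same library do not depend on how libraries are scaled. Per 100 Ccl2 counts there were 11.8, 13.5, 20.6 and 11.6 Il1b counts in injured replicates 1 to 4, and 26.1, 19.0, 40 and 16.7 in stimulated replicates. These ranges overlapped. The quotient was chosen after the values were seen and was not tested.

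Across libraries the 5 genes were high or low in partly the same places. The number of genes above the highest uninjured library was 5 in injured replicates 2, 3 and 4 and in stimulated replicates 2 and 3, although Tlr4 in stimulated replicate 3 rested on 1 count (3.59 CPM against an uninjured maximum of 3.54 CPM). It was 4 in injured replicate 1 and in stimulated replicate 4, where Cd14 had no count, and 3 in stimulated replicate 1, the shallowest library, where Cd14 and Tlr4 had none. Injured replicate 1 had the lowest injured level of Cd14, Ccl2 and Il1b, and Tlr2 and Tlr4 were lowest in injured replicate 2. Over all genes with 10 or more counts, 22.5% to 27.8% lay above the highest uninjured library in a given injured library, and 28.7% to 29.8% in a given stimulated one. In stimulated cord no library was lowest throughout: replicate 1 had the highest Tlr2 level, replicate 3 the highest Il1b level and replicate 4 the highest Ccl2 level.

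**Figure D4:**
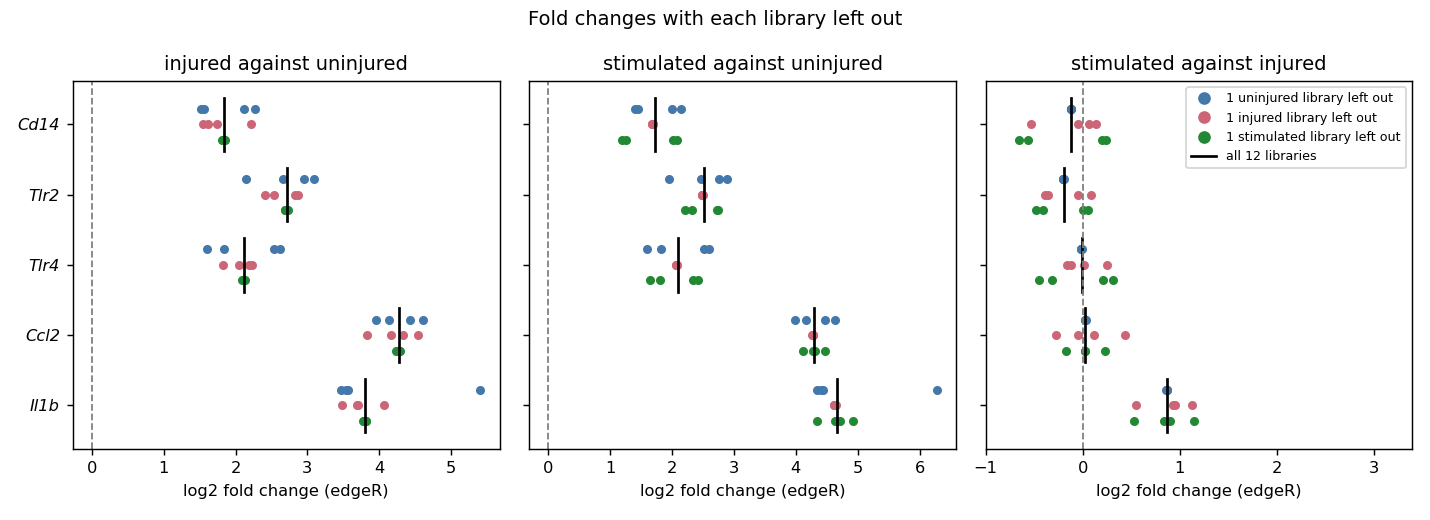
Log2 fold change of each gene in the second edgeR fit with all 12 libraries (black lines) and with each library left out in turn (points, coloured by the group of the library left out), in 3 comparisons. All points against uninjured cord lie above 0, from 1.19 for Cd14 to 6.27 for Il1b, and those for stimulated against injured cord lie on both sides of 0 except for Il1b, at 0.53 to 1.15.

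Among 3112 other genes with a mean count of 20 or more, ENSRNOG00000020918 and ENSRNOG00000007338 were most like Ccl2 over the 12 libraries, each with a Pearson r of 0.956 in log2 CPM. ENSRNOG00000007338 stood at 37.7 ± 8.81 CPM in uninjured, 504 ± 198 CPM in injured and 591 ± 166 CPM in stimulated cord (SD, n = 4 each). ENSRNOG00000020918 stood at 47.6 ± 12.3, 213 ± 79.9 and 169 ± 20.6 CPM in the same order. An r above 0.9 with Ccl2 was found for 2.80% of these genes. With the mean of each group taken out of both genes, r was 0.780 for ENSRNOG00000020918 and 0.594 for ENSRNOG00000007338 over the 12 libraries. Both genes were picked by their correlation over these same libraries, so these values are no independent check.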

How the data were processed

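The deposited file holds raw counts for each Ensembl gene in 12 libraries, 3 groups of 4 per the labels. Per the submitters' processing notes, the tools were HTSeq 0.6.0 and HISAT2 2.0.4, with the build Rnor_6.0. Strand setting, annotation release and collapsing of molecular identifiers: not given in the sources used here. Highest counts per library lay between 4059 and 4094 in all 12 libraries, although totals ran from 204836 to 553986. Whether counts have a ceiling there, and what it would do to totals and CPM, was not tested.

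The 5 genes and all lists were chosen with earlier results of these data known. Symbols came with the selection of the identifiers. The RefSeq table held all 5 symbols and paired 0 identifiers, so names, the pathway list and the cell type markers were not checked or analysed here.

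In R 4.3.3, edgeR 4.0.16 was run on filterByExpr genes with TMM factors and a robust quasi-likelihood fit of all 12 libraries (9 residual degrees of freedom), with Benjamini-Hochberg adjustment over all genes. The second fit, chosen after the data were seen, took genes with 10 or more counts in all. A fit without a filter took all genes counted. CPM divides by the library total times the TMM factor. Intervals of log2 fold changes came from limma 3.58.1 (voom), and ratio intervals are exact Clopper-Pearson at 95%, for counting error only. Exact permutation p-values were adjusted over all genes, not over the 5 genes as first planned. Named genes were the 5, and the 2 genes most correlated with the best counted one (log2 CPM, prior count 2). Alternatives were other scalings, filters, DESeq2 1.42.0, limma-voom with weights, a replicate block, thinning to 204836 counts and leaving out each library. The edgeR, permutation and interval code was tested on simulated data. No libraries of a group looked like repeats of 1 library (their counts differed with a chi-square of 2.95 to 10.01 for each degree of freedom). Some pairs were closer: 3.35 for uninjured replicates 1 and 4 and 2.99 for 2 and 3, against 7.62 to 10.01 for other uninjured pairs. Stimulated replicates 2 and 4 gave 2.95 and 1 and 3 gave 3.77, against 5.18 to 6.23. The labels do not explain these pairs, and their cause was not tested. All p-values treat the 4 libraries of a group as separate. Figures were drawn with matplotlib 3.10.9.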

Additional observations from a re-analysis of the deposited data

Results flagged for a closer look

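Il1b in uninjured replicate 2 was at 2.24 CPM, from 1 count, with the other 3 uninjured libraries at 0. A group with a single count always has such a gap, and of 15 groups of 4 libraries examined for the 5 genes this 1 library was singled out, where chance gives about 0.75.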

How the results depend on the processing

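In the main fit 2 of the 5 genes were called against uninjured cord in each comparison, Tlr2 and Ccl2. The number was 1, Ccl2, in both comparisons with a mean count of 20 or more, with only the 2 groups compared, and with counts thinned to the smallest total, because Tlr2 then did not pass the filter. Leaving out each library gave 1 to 2 calls in both comparisons: Tlr2 was not tested without injured replicate 3 or 4, and missed the threshold in stimulated cord without uninjured replicate 2. In the second fit, 3 genes were called in both comparisons under every alternative run, except 2 in stimulated cord without uninjured replicate 2. No fold change that was called changed sign. Between stimulated and injured cord 0 of the 5 were called under any alternative. Among all genes in that comparison, 28 were called without a filter, 1 with DESeq2 and 1 without stimulated replicate 3, against 0 in the main fit. In injured against uninjured cord 1123 genes were called with a mean count of 20 or more, against 1692. The replicate numbers of the labels were not taken to pair the libraries, since not every pair correlated above 0.1: deviations of same-numbered libraries correlated at -0.344 to 0.429 for injured and uninjured, -0.313 to 0.418 for stimulated and uninjured, and 0.066 to 0.291 for stimulated and injured cord, where 3 of 4 pairs were above 0.1. With the replicate number as a block, 2 of the 5 genes were called in both comparisons with uninjured cord, 0 between stimulated and injured cord, and 1801 genes in all in injured against uninjured cord. With 20 and 25 counts in all, Cd14 and Tlr4 had few counts, and the parts of depth and of spread between libraries were not separated.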
